A study of Mus musculus with 16 samples.

Results

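The serpins are a family of protease inhibitors, and their genes were followed here through acetylation of histone H3 at lysine K27 (H3K27ac), found at promoters and enhancers in use, as measured in mouse liver by chromatin immunoprecipitation and sequencing. Members were the genes whose symbol is Serpin followed by a letter from a to i and a number, except Serpina7, and the H3K27ac regions that lie inside such a gene by their midpoint, or in no gene and within 50 kb of it as the nearest protein-coding gene. The rule covered 68 genes, of which 62 are protein-coding and 6 are pseudogenes. Of these, 30 genes had 1 or more regions, and they held 129 of the 52645 regions in the deposited table. All 129 regions passed the filter on low counts.

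Wild-type (WT) mice and mice labelled NCoR1 KO, both of C57BL/6J background, were kept on standard chow or were given a low-iodine diet with 0.15% propylthiouracil (PTU/LID), an inhibitor of thyroid hormone synthesis, from 6 weeks of age. Livers of all groups were taken on day 21. The 4 groups had 3 libraries each: WT on chow, WT on PTU/LID, KO on chow and KO on PTU/LID. NCoR1 is a corepressor that brings histone deacetylase activity to nuclear receptors without ligand, among them the thyroid hormone receptors. The labels give neither the deleted part of the gene nor what drives the deletion, so H3K27ac at NCoR1 cannot check the knockout. Whether each library number stands for its own animal is not stated either, so a p-value here speaks of spread among libraries. Libraries are named by genotype and the number in their label, such as WT-135.

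A serpin presents an exposed loop that its protease cuts, and the cut serpin then traps the protease in a dead-end complex. Clade a serpins, and the antithrombin, antiplasmin and C1 inhibitor clades, are mostly secreted, and the liver is the main source of many of them in plasma. Clade b serpins mostly stay inside cells, where they protect against the cell's own or incoming proteases. In rodents the counterparts of human alpha-1-antitrypsin (Serpina1) and antichymotrypsin (Serpina3) have multiplied into groups of neighbouring genes.

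Total counts over all regions ranged from 2965505 to 7416187 per library. Mitochondrial counts made up more than 2% of the total in 7 libraries and less in 5, and KO-146 stood apart at 17.25%, where the others had 0.72% to 6.12%. All 3 KO chow libraries were in the higher set, and WT-106, WT-155 and WT-280 and KO-232 and KO-239 formed the lower set. Among the 10 hepatocyte markers, 10 had a region, and their H3K27ac summed to 3612 to 5258 CPM per library, where CPM is the count scaled to the library's normalized total. Kupffer cell and macrophage markers had a region at 4 of 9 genes, and Adgre1, Clec4f, Vsig4, Marco and Cd5l had none. Lymphocyte markers had one at 1 of 7 genes (Cd4), neutrophil markers at 0 of 6, and cholangiocyte markers at 2 of 5. WT-135 lay apart from the other 2 libraries of its group at many Serpin genes, and results that rest on it are given with and without it. Because these same values singled it out, a call gained without it is no separate support, and rests on 2 libraries in that group.

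Regions were found at more of the genes of clade a than of clade b. Over the whole genome, 11471 genes had a region, where 21887 protein-coding genes were used. In clade a, 18 of 28 genes had a region, all in 1 cluster of 797.7 kb on chromosome 12 that held 83 of the 129 regions. In clade b, 5 of 29 genes had a region: Serpinb8 in the cluster of 12 genes on chromosome 1, and Serpinb1a, Serpinb6a, Serpinb6b and Serpinb9 in the cluster of 17 genes on chromosome 13. The 1 gene of clade c (Serpinc1), the 1 of clade d (Serpind1), both of clade f (Serpinf1 and Serpinf2), the 1 of clade g (Serping1) and the 1 of clade h (Serpinh1) had regions. Neither gene of clade i, Serpini1 or Serpini2, had one.

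Of the other genes with no region, 2 lie outside the clusters and the rest within them. In the chromosome 12 cluster they were Serpina3a, Serpina3b, Serpina3c, Serpina3i, Serpina3j and the pseudogenes Serpina4-ps1, Serpina3d-ps, Serpina3e-ps, Serpina3h and Serpina3l-ps. On chromosome 1 they were Serpinb2, Serpinb3a, Serpinb3b, Serpinb3c, Serpinb3d, Serpinb5, Serpinb7, Serpinb10, Serpinb11, Serpinb12 and Serpinb13. On chromosome 13 they were Serpinb1b, Serpinb1c, Serpinb6c, Serpinb6d, Serpinb6e, Serpinb9b, Serpinb9c, Serpinb9d, Serpinb9e, Serpinb9f, Serpinb9g, Serpinb9h and the pseudogene Serpinb1-ps1. A gene without a region in the table has no value here, which does not show that the mark is absent from it.

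Per kb of region, the mean level over the 12 libraries ran from 13.11 CPM per kb at Serpina3f to 44.72 at Serpinc1, the gene of antithrombin, which inhibits thrombin and factor Xa. Serpina10, the gene of the protein Z-dependent inhibitor of factor Xa, followed at 42.24 CPM per kb, then Serpinf1 at 36.85 and Serpinf2 at 36.57. The lowest after Serpina3f were Serpina3g at 13.25, Serpina16 at 17.15, Serpinb6b at 17.33 and Serpinh1 at 18.07 CPM per kb. Serpinc1 alone, with 8 regions, took 12.1% of the CPM of all members, and Serpina1a, with 9 regions, took 8.82%. By this measure the clusters were at 30.03 CPM per kb for the Serpina cluster, 29.33 and 28.44 for the Serpinb clusters of chromosomes 1 and 13, and 36.75 for the Serpinf genes of chromosome 11.

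**Figure D1:**
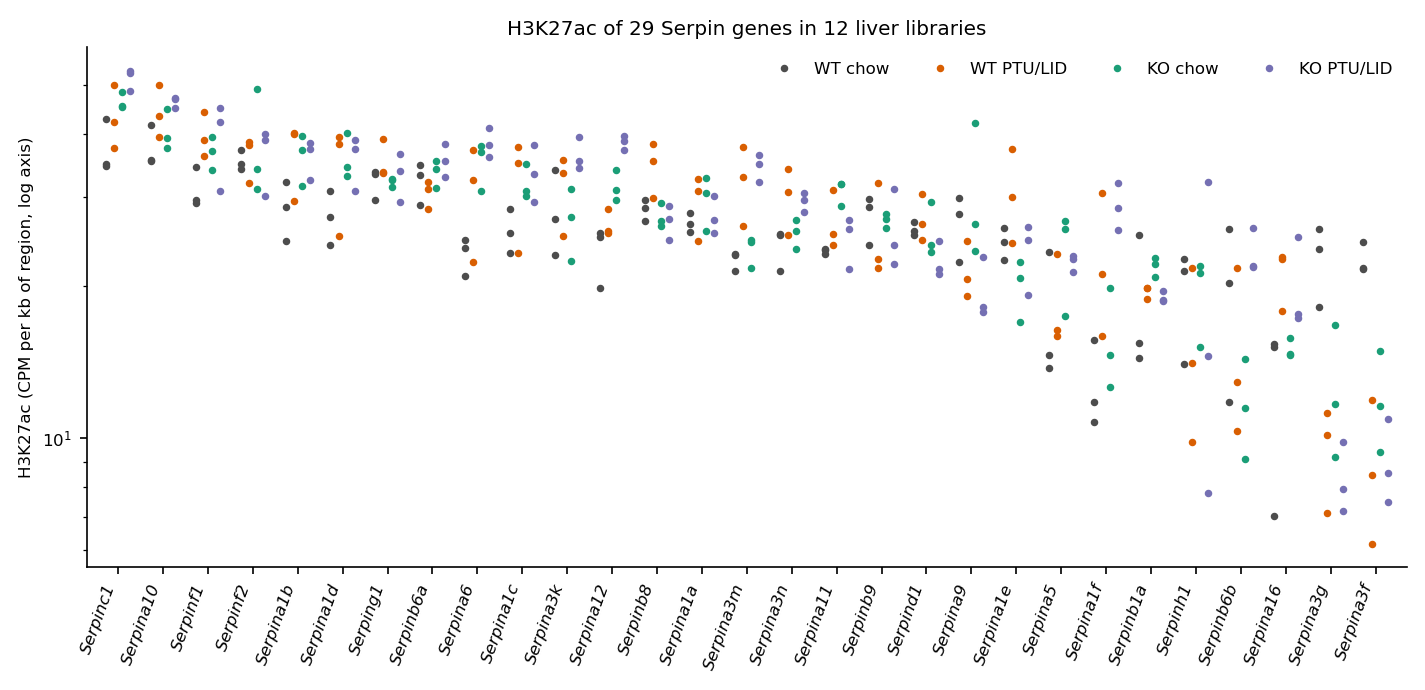
H3K27ac of 29 Serpin genes with a region, as CPM per kb of region on a log axis, with 1 point per library coloured by group (3 libraries each) and genes ordered by their mean. Serpinc1 and Serpina10 are highest at 44.72 and 42.24 CPM per kb on average, and Serpina3f and Serpina3g are lowest at 13.11 and 13.25.

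Over the whole family, most members did not pass for the diet or the genotype. At gene level, 5 of 30 genes (16.7%) passed for PTU/LID against chow in WT (3 higher, 2 lower). Of all 11459 genes tested, 7.8% passed. In KO, 4 passed (13.3%, 4 higher), against 7.63% of all genes. Between genotypes on chow, 4 passed (13.3%, 2 higher in KO, 2 lower), against 4.1% of all genes. On PTU/LID, 1 passed (3.33%, higher in KO), against 6.66%. These member shares rest on 5, 4, 4 and 1 genes, and were not tested against those of all genes. All these calls are from edgeR's quasi-likelihood test with Benjamini-Hochberg adjustment over all genes, at an adjusted p below 0.05.

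At region level the member shares lay near those of all regions. For PTU/LID against chow, 6 of 129 regions passed in WT (3 higher, 3 lower), against 3.7% of all 52606 regions tested, and 5 passed in KO (3 higher, 2 lower), against 6.21%. For KO against WT, 4 passed on chow (3 higher, 1 lower), against 2.43%, and 4 on PTU/LID (4 higher), against 3.86%. The median log2 fold change of the 129 regions was 0.20 for the diet in WT, beside -0.03 over all regions, and 92 of the 129 lay above 0. It was 0.05 for the diet in KO, 0.10 for KO against WT on chow and -0.04 for KO against WT on PTU/LID, beside -0.01 over all regions in each of these 3. Comparisons that share a group, such as the diet in WT and the genotype on chow, share those 3 libraries.

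The interaction, which asks whether the diet acted differently in the 2 genotypes, passed at 0 of 129 regions and 0 of 30 genes by edgeR, against 0.23% of all regions and 0.419% of all genes. At an unadjusted p under 0.05 there were 14 regions and 4 genes, and DESeq2 called 0 at either level. A call in one genotype and not in the other, below, is therefore not shown to differ between them.

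**Figure D2:**
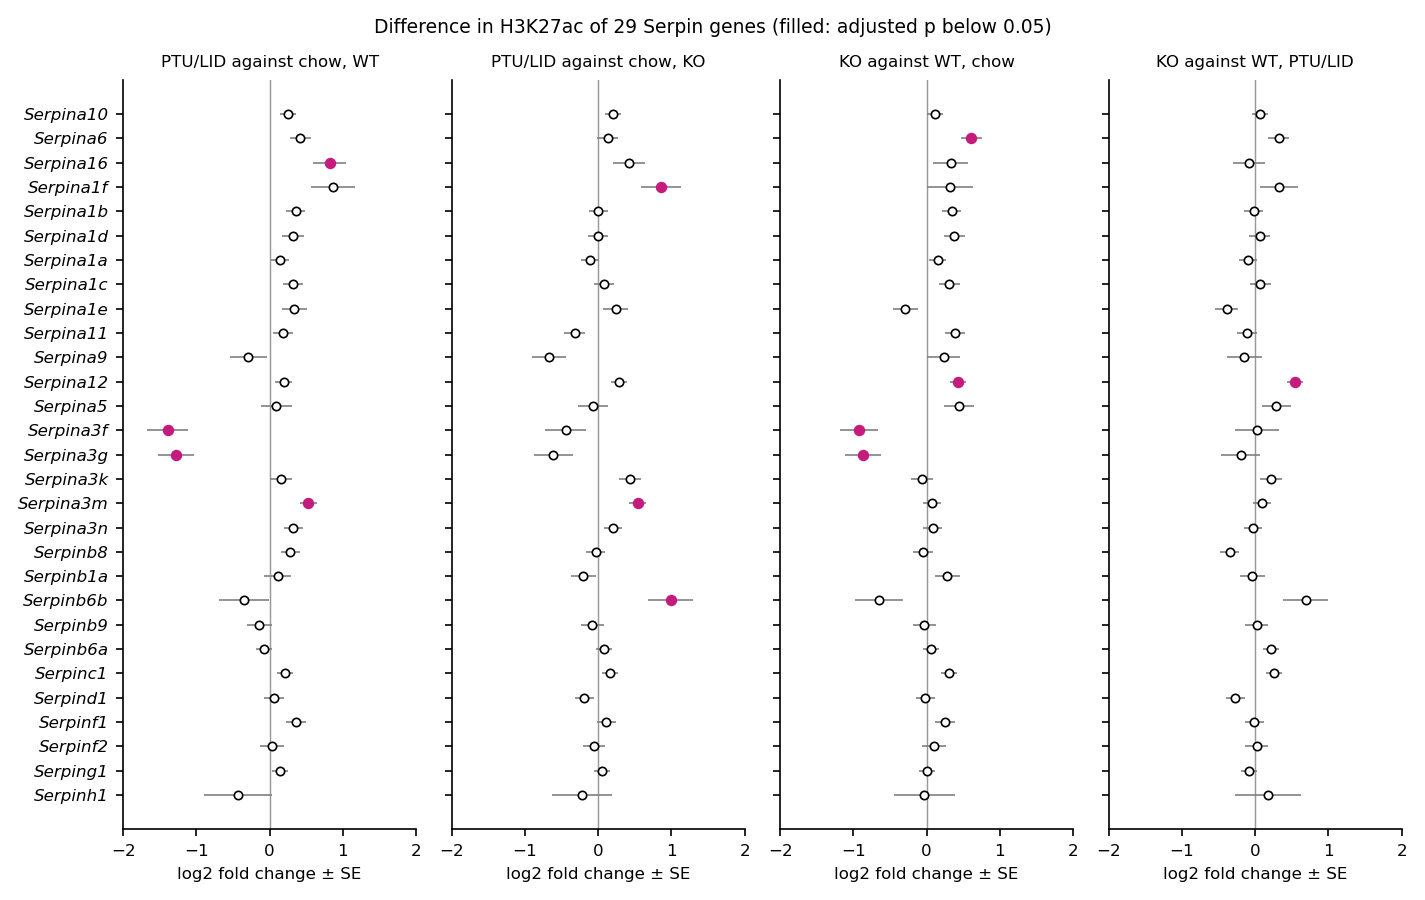
Log2 fold change in H3K27ac ± SE for each of 29 Serpin genes in 4 comparisons (3 libraries per group), with filled points where the adjusted p of edgeR's quasi-likelihood test was below 0.05. Serpina3m is filled to the right of 0 in both diet panels, and Serpina3f and Serpina3g are filled to the left in the WT diet and the chow genotype panels.

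The Serpina1 genes are the mouse counterparts of the human gene of alpha-1-antitrypsin, the main plasma inhibitor of neutrophil elastase. Of the 6 copies, 5 have nearly the same promoter, and Serpina1f was not among the promoters compared. Over the aligned positions of 300-base RefSeq promoter windows (GRCm38.p6), the 10 pairs among Serpina1a, Serpina1b, Serpina1c, Serpina1d and Serpina1e were 91.4% to 97.6% identical. The highest, Serpina1b with Serpina1e, had 244 identical bases in 250 aligned positions. The 200 bases before each annotated start are shown to compare the copies, on the gene's strand, with capitals marking matches to the HNF1 motif GTTAAT and the C/EBP motif TTGCNNAA on either strand.
Serpina1a: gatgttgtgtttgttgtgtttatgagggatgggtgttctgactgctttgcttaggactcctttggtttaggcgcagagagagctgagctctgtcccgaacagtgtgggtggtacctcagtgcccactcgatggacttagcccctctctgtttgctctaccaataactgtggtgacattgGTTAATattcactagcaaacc
Serpina1b: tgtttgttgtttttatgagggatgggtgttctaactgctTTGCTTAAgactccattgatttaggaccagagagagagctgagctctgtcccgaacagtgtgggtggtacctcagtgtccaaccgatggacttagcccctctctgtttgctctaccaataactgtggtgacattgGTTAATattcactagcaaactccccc
Serpina1c: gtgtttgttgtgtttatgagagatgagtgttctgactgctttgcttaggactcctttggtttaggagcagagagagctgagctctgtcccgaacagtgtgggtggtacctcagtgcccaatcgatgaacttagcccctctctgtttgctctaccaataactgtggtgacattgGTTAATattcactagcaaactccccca
Serpina1d: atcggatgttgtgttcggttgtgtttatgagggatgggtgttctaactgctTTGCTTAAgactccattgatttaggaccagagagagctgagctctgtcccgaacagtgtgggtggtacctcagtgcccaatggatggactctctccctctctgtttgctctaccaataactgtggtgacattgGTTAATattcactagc
Serpina1e: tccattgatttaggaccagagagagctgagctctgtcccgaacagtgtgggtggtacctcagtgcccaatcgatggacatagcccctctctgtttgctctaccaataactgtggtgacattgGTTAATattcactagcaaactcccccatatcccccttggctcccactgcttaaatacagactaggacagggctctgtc
They lie at chr12:103863620-103863819, chr12:103738190-103738389, chr12:103904951-103905150, chr12:103773634-103773833 and chr12:103956898-103957097, all on the minus strand. Each copy held 1 match to GTTAAT here, whose first base lay 21, 26, 27, 16 and 78 bases before the start of Serpina1a, Serpina1b, Serpina1c, Serpina1d and Serpina1e. Since the promoters are near copies, the 5 matches are not independent. The motif was in 7.1% of 32851 promoter windows of the same length. The C/EBP letters stood in the bases shown at 161 bases in Serpina1b and 149 bases in Serpina1d. Over the 300-base windows they were also found at Serpina1a and Serpina1e, at 8 of 13 Serpina genes with a region and a window, and in 10.8% of all windows. Those 8 include the near copies Serpina1a, Serpina1b, Serpina1d and Serpina1e, so they are not independent either. Members were counted per gene over any of its windows, and the share of all was counted per window. The nuclear receptor motif AGGTCA, in 16.3% of all windows, was found at 6 of the 22 members with both a region and a window: Serpina11, Serpina16, Serpina1f, Serpind1, Serpinf1 and Serpinf2. The direct repeat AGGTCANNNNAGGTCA, which thyroid hormone receptors are known to bind, was in 0.0152% of all windows and at 0 of these 22, which says only that these letters are not in these windows.

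All 6 Serpina1 genes had regions, 34 in number. Their H3K27ac summed to 759.9, 737.2 and 858 CPM in the WT chow libraries and to 741.5, 1025 and 1081 CPM in PTU/LID-fed WT. It summed to 962.6, 843.4 and 1016 CPM in chow-fed KO and to 836.3, 950.6 and 1029 CPM in PTU/LID-fed KO. Libraries WT-135, KO-146 and KO-211, at 741.5, 843.4 and 836.3 CPM, lay within the range of the WT chow libraries, and the other 6 libraries lay above it.

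Copy by copy, Serpina1a measured 274.9 CPM on average, Serpina1d 213.6, Serpina1c 185.5, Serpina1b 184.1, Serpina1e 37.45 and Serpina1f 7.97. Per kb of region the first 4 were close, at 28.36 to 34.36 CPM per kb, and Serpina1e was at 24.62 and Serpina1f at 19.98. In WT the log2 fold changes for the diet were 0.36 ± 0.13 (SE) at Serpina1b, 0.32 ± 0.15 at Serpina1d, 0.32 ± 0.14 at Serpina1c, 0.34 ± 0.17 at Serpina1e and 0.14 ± 0.12 at Serpina1a, with edgeR adjusted p from 0.0957 to 0.511. None of these passed. Without WT-135, the lowest library of its group at these genes, Serpina1b (0.49, adjusted p = 0.0107), Serpina1c (0.50, 0.0081) and Serpina1d (0.49, 0.00957) passed in the edgeR test. In KO the diet fold change of Serpina1c was 0.08 (log2), with adjusted p of 0.994, 0.825 and 0.992 for the 3 genes. Between genotypes on chow the 3 genes were higher in KO by 0.34 ± 0.13, 0.31 ± 0.14 and 0.38 ± 0.15, and none passed the same test (adjusted p = 0.139, 0.232 and 0.139). Within the higher mitochondrial share, which on chow leaves out only WT-106, the differences were 0.44, 0.39 and 0.47. Reads of such similar copies can be hard to place, and how reads with several matches were treated is not given in the sources used here, so the split between copies is uncertain.

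Serpina1f had 1 region, which lies outside the gene, centred 10446 bp before its start (chr12:103705776-103706174). On the scale of gene sums it measured 5.06, 5.85 and 7.93 CPM in chow-fed KO and 11.43, 10.3 and 12.8 CPM in PTU/LID-fed KO. The groups did not overlap, and the rise of 0.86 ± 0.27 (log2, SE) passed the edgeR test (adjusted p = 0.0472). It passed without KO-190 (adjusted p = 0.047) but not without any other of the 6 libraries compared (up to 0.205). In WT the change was also 0.86, ± 0.30, with an adjusted p of 0.0827 in the same test, and 1.03 without WT-135 (0.0271).

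Single regions at the Serpina1 genes also moved. The region over the promoter of Serpina1c (chr12:103904415-103905812) measured 34.21, 28.16 and 42.49 CPM in chow-fed WT and 40.63, 59.21 and 66.93 CPM in PTU/LID-fed WT. The groups overlapped through WT-135, and the rise of 0.66 ± 0.19 had an edgeR adjusted p of 0.0343, which was up to 0.228 without WT-96 or WT-99 or WT-155 or WT-280. Among the member regions that passed between genotypes, the largest difference was a fall at one centred 5957 bp before the start of Serpina1e (chr12:103962752-103962956). It measured 5.38, 6.35 and 5.62 CPM in WT and 2.36, 1.49 and 1.38 CPM in chow-fed KO. Those groups did not overlap, and the log2 fold change was -1.73 ± 0.36 (edgeR adjusted p = 0.00567, and 0.051 without KO-190).

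At Serpina1d, 2 regions passed in the edgeR test. A region inside the gene (chr12:103770887-103773006) measured 52.58, 48.04 and 64.8 CPM in chow-fed WT and 85.47, 77.78 and 103.2 CPM in chow-fed KO, a rise of 0.68 ± 0.19 (adjusted p = 0.0471) that was lost when any 1 of the 6 libraries was left out (up to 0.234). A smaller one (chr12:103766550-103766756) measured 5.44, 3.91 and 3.06 CPM in chow-fed KO and 1.79, 1.79 and 1.75 CPM in PTU/LID-fed KO, a fall of 1.20 on the log2 scale (SE 0.36, adjusted p = 0.037). It passed without KO-190, and was lost without any other of the 6 libraries (up to 0.222) and with DESeq2.

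The Serpina3 genes are mouse relatives of antichymotrypsin, an acute-phase inhibitor of chymotrypsin-like proteases, and 5 of the 14 members had a region. They fell into 2 kinds. Serpina3k, Serpina3m and Serpina3n had high levels (30.74, 28.28 and 27.27 CPM per kb), and Serpina3f and Serpina3g, known from lymphoid and myeloid cells, had the lowest of the family.

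Serpina3f fell on PTU/LID in WT. Its 2 regions summed to 13.95, 14.06 and 15.77 CPM in chow-fed WT and to 7.70, 3.99 and 5.46 CPM in PTU/LID-fed WT. They summed to 7.48, 9.61 and 6.07 CPM in chow-fed KO and to 7.03, 4.84 and 5.51 CPM in PTU/LID-fed KO. WT on chow stood above all 9 other libraries, which overlapped one another. The log2 fold change was -1.39 ± 0.28 for the diet in WT (edgeR adjusted p = 0.00319) and -0.93 ± 0.26 for KO against WT on chow (0.0383).

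Serpina3g was also highest in chow-fed WT. It measured 16.82, 21.87 and 23.93 CPM in chow-fed WT, 10.37, 6.58 and 9.38 CPM in PTU/LID-fed WT, 8.49, 15.45 and 10.8 CPM in chow-fed KO, and 9.08, 7.33 and 6.64 CPM in PTU/LID-fed KO. WT on chow was again above all other libraries. The log2 fold change was -1.28 ± 0.25 for the diet in WT (edgeR adjusted p = 0.00304) and -0.87 ± 0.24 for KO against WT on chow (0.0376). Both comparisons use the same 3 WT chow libraries, so they are not independent.

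The WT diet calls at both genes held without each of the 6 libraries (adjusted p up to 0.0327 at Serpina3f and 0.0306 at Serpina3g). Among libraries of the higher mitochondrial share alone they did not pass (-0.86, adjusted p = 0.373, and -0.90, 0.29, with WT-135 as the only one of its group), and among those of the lower share they did (-1.71, 0.00417, and -1.56, 0.00258, with 1 WT chow library). The genotype call on chow at Serpina3f held only without KO-146, and was lost without any of the other 5 (adjusted p up to 0.185). At Serpina3g it held without KO-146 or WT-96, and was lost without the other 4 (up to 0.17). Cyclic loess normalization also ended both calls, and the higher mitochondrial share alone and the regions inside the gene ended that at Serpina3g, all by edgeR.

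The 4 regions of the 2 genes lie at the annotated starts or just inside the genes. The region that begins just inside Serpina3f (chr12:104214551-104214936) changed by -1.42 ± 0.33 on the diet in WT (edgeR adjusted p = 0.00941). Those over and after the start of Serpina3g (chr12:104235727-104236231 and chr12:104236268-104236685) changed by -1.16 ± 0.32 (0.0314) and -1.34 ± 0.34 (0.0175). The last also passed in KO, at -1.11 ± 0.35 (0.049). These 3 WT calls were lost in turn without WT-106 or WT-155 or WT-280, with adjusted p up to 0.0596, 0.217 and 0.0955, and the last also without WT-99. The KO call was lost without KO-146 or KO-190 or KO-232 or KO-239 (up to 0.342) and with DESeq2.

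The 200 bases before the 2 starts are shown because the genes moved alike, with capitals marking matches to TTGCNNAA and to the TATA box motif TATAAA on either strand. Over the promoter windows the 2 genes were 79% identical (169 of 214 aligned positions).
Serpina3f: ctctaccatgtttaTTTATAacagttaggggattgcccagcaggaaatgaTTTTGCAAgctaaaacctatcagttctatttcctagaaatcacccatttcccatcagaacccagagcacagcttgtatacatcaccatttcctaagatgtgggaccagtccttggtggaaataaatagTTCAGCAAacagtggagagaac
Serpina3g: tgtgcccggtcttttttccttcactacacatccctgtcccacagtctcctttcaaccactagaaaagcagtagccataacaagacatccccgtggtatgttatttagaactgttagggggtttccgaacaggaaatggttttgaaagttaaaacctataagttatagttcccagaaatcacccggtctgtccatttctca
They lie on the plus strand at chr12:104214344-104214543 and chr12:104235947-104236146. No H3K27ac region overlapped the stretch of Serpina3f, and the region over the start of Serpina3g overlapped that of Serpina3g. In the stretch shown, Serpina3f had 1 match to TATAAA, which was in 13.6% of all windows, and 2 to TTGCNNAA, and Serpina3g had none of the motifs searched.

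For the diet in WT and for KO against WT on chow, markers of macrophages and endothelial cells moved in the same direction as Serpina3f and Serpina3g. For the diet in KO, the median log2 fold change was 0.1 for the macrophage markers and -0.14 for the endothelial markers. Of the endothelial markers Tek passed the edgeR test there, at -0.87 ± 0.27 (adjusted p = 0.0465). Serpina3f and Serpina3g changed there by -0.44 ± 0.28 and -0.61 ± 0.26, and neither gene passed. The 4 macrophage markers with a region summed to 51.23 to 70.84 CPM in chow-fed WT, 36.42 to 37.31 in PTU/LID-fed WT, 35.38 to 40.51 in chow-fed KO and 35.25 to 49.52 in PTU/LID-fed KO. Among them Spi1, the gene of the myeloid factor PU.1, averaged 48.29, 25.38, 29.38 and 30.32 CPM in the 4 groups in that order, and passed the edgeR test for the diet in WT (-0.93 ± 0.19, adjusted p = 0.00332) and for KO against WT on chow (-0.71 ± 0.18, 0.0255). The 8 endothelial markers with a region, of 9, summed to 819.7 to 860.3, 701.3 to 797.7, 651.3 to 676.9 and 630.4 to 674.3 CPM. In both comparisons Pecam1 and Ehd3 of that list fell. Of the stellate cell and fibroblast markers, 4 of 9 had a region, with mean sums of 30.5 CPM in chow-fed WT and 20.99 in chow-fed KO, and Col3a1 was lower in KO on chow (-1.23 ± 0.32, edgeR adjusted p = 0.0279). The 1 lymphocyte marker with a region, Cd4, fell on the diet in WT from 66.46 to 32.83 CPM (-1.03 ± 0.17, edgeR adjusted p = 0.000699), and on chow was higher in KO, at 97.96 CPM (0.56 ± 0.16, 0.0478). On the diet in KO Cd4 fell to 47.29 CPM (-1.03 ± 0.16, 0.00015 in the same test). The part of these cells in the Serpina3f and Serpina3g results was not tested. In whole liver, fewer cells of a type and less of the mark per cell cannot be told apart.

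Serpina3m rose on PTU/LID in both genotypes. Its 9 regions summed to 123.1, 122.8 and 114 CPM in chow-fed WT and to 140.2, 200.9 and 175.4 CPM in PTU/LID-fed WT. They summed to 115.7, 131.1 and 130.4 CPM in chow-fed KO and to 185.5, 193.1 and 171.3 CPM in PTU/LID-fed KO. Every PTU/LID library was above every chow library. The log2 fold change was 0.53 ± 0.12 in WT (edgeR adjusted p = 0.00963) and 0.54 ± 0.12 in KO (0.00463), and the genotypes differed by 0.07 ± 0.12 on chow and 0.09 ± 0.12 on PTU/LID.

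The KO call held without each of the 6 libraries (adjusted p up to 0.0439) and within the higher mitochondrial share (0.54, 0.00784, with KO-211 as the 1 library of its group). The WT call was lost without WT-155 (0.0843) and within the higher share (0.19, 0.646), where WT-135 is the 1 PTU/LID library of WT. The rise was spread over the locus: all 9 regions had fold changes above 0 in both genotypes, from 0.21 to 1.11 in WT and from 0.24 to 0.71 in KO on the log2 scale, and no region passed the edgeR test by itself with all libraries. The highest, at the lower end of the gene (chr12:104387172-104388700, 60.95 CPM on average), changed by 0.62 in WT (adjusted p = 0.0785) and 0.59 in KO (0.0724), and passed in WT without WT-135 (0.87, 0.00164) and in KO without KO-211 (0.69, 0.0438).

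The neighbours of Serpina3m did not pass with all libraries. Serpina3k, which encodes an abundant plasma serpin, measured 141.7 ± 27.62 CPM in chow-fed WT (SD, n = 3), 158.6 ± 27.76 in PTU/LID-fed WT, 136.4 ± 22.07 in chow-fed KO and 183.8 ± 13.97 in PTU/LID-fed KO. Its diet fold change was 0.16 ± 0.15 in WT and 0.43 ± 0.15 in KO (edgeR adjusted p = 0.564 and 0.0751). Serpina3n, an inhibitor of granzyme B and other proteases in mice, changed by 0.32 ± 0.13 and 0.20 ± 0.12 (0.122 and 0.384), and without WT-135 by 0.42 in WT (0.0266).

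**Figure D3:**
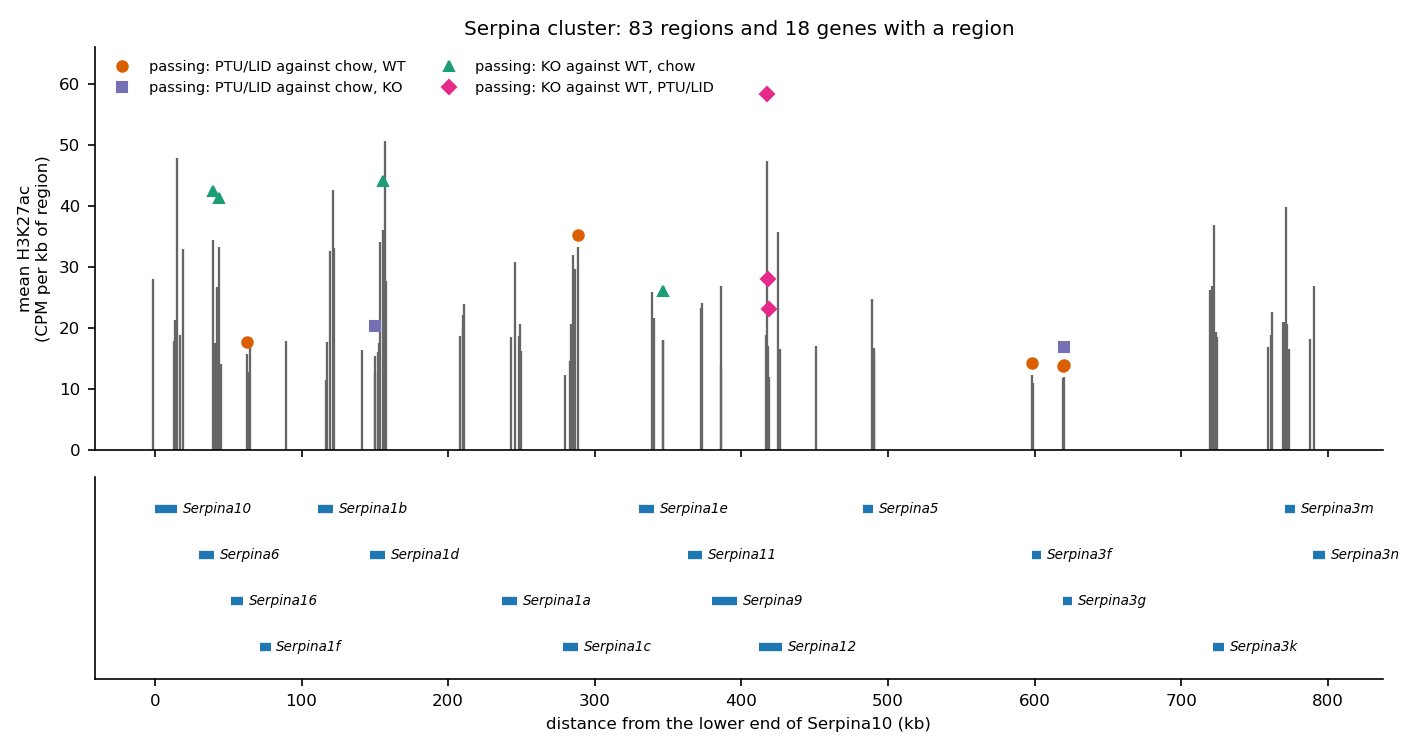
The Serpina cluster, with each of its 83 regions as a line at its distance from the lower end of Serpina10 (kb) and as high as its mean H3K27ac over 12 libraries (CPM per kb of region), above the 18 genes that hold them (bars). Symbols above a line mark the comparisons in which the region passed; they sit at Serpina6, Serpina16, Serpina1d, Serpina1c, Serpina1e, Serpina12, Serpina3f and Serpina3g.

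Serpina12 encodes vaspin, an inhibitor of kallikrein 7 that is also known as an adipokine, and it was higher in KO on both diets. It measured 143.5, 140.9 and 111.8 CPM in chow-fed WT and 191.5, 174.8 and 166.9 CPM in chow-fed KO. On PTU/LID it measured 160, 144 and 145.3 CPM in WT and 209.5, 218.1 and 223.8 CPM in KO. KO was above WT in every library of the same diet, and KO on PTU/LID was above all other libraries. KO exceeded WT by a log2 fold change of 0.43 ± 0.11 on chow (edgeR adjusted p = 0.0293) and 0.54 ± 0.11 on PTU/LID (0.00321).

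The call on PTU/LID held without each of the 6 libraries (adjusted p up to 0.0235) and was lost within the higher mitochondrial share (0.37, 0.288), which leaves 1 library per group. The call on chow held only without WT-96, and was lost without any of the other 5 (up to 0.164), with cyclic loess normalization (0.0961) and within the higher mitochondrial share (0.0517). The regions that passed on PTU/LID are 3 neighbours inside the gene, chr12:104033971-104034527 (0.67 ± 0.19, adjusted p = 0.0325), chr12:104034640-104035100 (1.0 ± 0.30, 0.0479) and chr12:104035106-104035908 (1.06 ± 0.30, 0.0344). Each was lost without KO-232 or KO-239 or WT-155 or WT-280 (up to 0.179, 0.275 and 0.203). The highest region of the gene, chr12:104040408-104042657 at 80.32 CPM, changed by 0.34 (0.231 in the same edgeR test).

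Serpina6 encodes corticosteroid-binding globulin, the plasma carrier of glucocorticoids and a serpin without inhibitor activity. Its 5 regions summed to 134.2, 139 and 118 CPM in chow-fed WT and to 173.9, 213.8 and 207.7 CPM in chow-fed KO. On PTU/LID they summed to 125.8, 183.3 and 209.9 CPM in WT and to 203.4, 215.1 and 231.5 CPM in KO. On chow the genotypes did not overlap, and on PTU/LID they overlapped at 203.4 and 209.9 CPM. KO was higher by 0.61 ± 0.14 (log2, SE) on chow (edgeR adjusted p = 0.0171) and by 0.32 ± 0.14 on PTU/LID (0.203).

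The chow call at Serpina6 was lost without KO-146 or KO-190 or WT-99 or WT-106 (adjusted p up to 0.0942). Within the higher mitochondrial share, which on chow leaves out only WT-106, the change was 0.53. For the diet in WT the change was 0.42 ± 0.14 (0.0754), and 0.60 without WT-135 (0.00175). The 2 highest of its regions passed on chow in the edgeR test, 1 inside the gene (chr12:103655338-103657189, 0.71 ± 0.19, adjusted p = 0.0322) and 1 centred 3140 bp beyond its higher-coordinate end (chr12:103659506-103661210, 0.70 ± 0.18, 0.0329). Both were lost without any library other than KO-122 (up to 0.136 and 0.157).

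Serpina16 had 3 regions, all outside the gene and centred 2942 to 4733 bp from it. They summed to 22.18, 21.87 and 10.15 CPM in chow-fed WT and 25.77, 32.66 and 32.95 CPM in PTU/LID-fed WT, without overlap. The rise of 0.82 ± 0.23 had an edgeR adjusted p of 0.0332, and was lost without WT-106 or WT-155 or WT-280 (up to 0.203). Without WT-106 it was 0.48, and within the higher mitochondrial share 0.23 (0.803). One region beside the gene (chr12:103679615-103679951) passed at 1.49 ± 0.40 (0.0251), lost without the same 3 libraries or WT-99 (up to 0.185). Within the higher mitochondrial share it changed by -0.06 (0.987).

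The other Serpina genes did not pass the edgeR test at gene level in any of these comparisons. Serpina10 measured 153.8 ± 14.88 CPM in chow-fed WT, 181.7 ± 21.66 in PTU/LID-fed WT, 166.2 ± 15.62 in chow-fed KO and 190.1 ± 4.74 in PTU/LID-fed KO (SD, n = 3). Serpina11 was at 40.25 ± 0.47, 45.99 ± 6.33, 52.86 ± 2.92 and 42.66 ± 4.87 CPM in that order, and Serpina5, the protein C inhibitor gene, at 24.65 ± 7.62, 26.42 ± 5.82, 33.46 ± 7.39 and 31.88 ± 1.28 CPM. Serpina9, known from germinal centre B cells, was at 14.70 ± 2.13, 11.83 ± 1.53, 16.96 ± 5.52 and 10.82 ± 1.54 CPM. Its diet fold change in KO was -0.67 ± 0.23 (adjusted p = 0.0813).

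The Serpina cluster as a whole held 1641, 1644 and 1717 CPM in chow-fed WT and 1673, 2130 and 2205 CPM in PTU/LID-fed WT. It held 1940, 1928 and 2028 CPM in chow-fed KO and 2013, 2174 and 2246 CPM in PTU/LID-fed KO. All libraries other than WT-135 lay above the WT chow libraries. The median log2 fold change of its 18 genes was 0.28 for the diet in WT, 0.10 in KO, 0.27 for KO against WT on chow and 0.04 for KO against WT on PTU/LID. Over its 83 regions, 59, 51, 57 and 44 were above 0 in that order. The 10 hepatocyte markers summed to 3612, 3662 and 4112 CPM in chow-fed WT, 3901, 5115 and 5008 in PTU/LID-fed WT, 4327, 4194 and 4481 in chow-fed KO and 4838, 5207 and 5258 in PTU/LID-fed KO, with WT-135 again lowest of its group. The part of this in the cluster totals was not tested. Without WT-135, 12 Serpin genes and 18 regions passed for the diet in WT in place of 5 and 6. The share of all genes and regions called without WT-135 is not given here. This shift is therefore not shown to be particular to Serpin genes.

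**Figure D4:**
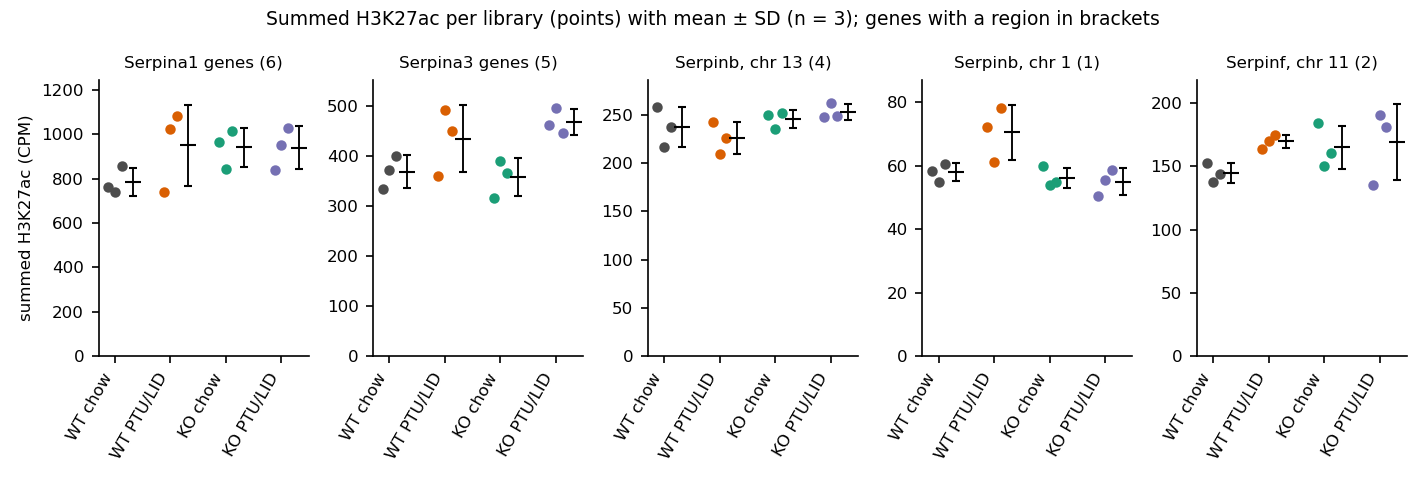
Summed H3K27ac (CPM) per library, as points with mean ± SD (n = 3) by group, for the Serpina1 genes, the Serpina3 genes, the Serpinb clusters of chromosomes 13 and 1 and the Serpinf genes, with the number of genes that have a region in brackets. In the Serpina1 panel 1 WT PTU/LID library, at 741.5 CPM, lies with the WT chow libraries (737.2 to 858 CPM), and the Serpinb panel of chromosome 13 stays between 209.3 and 262.4 CPM in all libraries.

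The Serpinb genes with a region changed little in sum. Those of chromosome 13 held 237.7 ± 20.6 CPM in chow-fed WT, 226.1 ± 16.63 in PTU/LID-fed WT, 245.8 ± 8.98 in chow-fed KO and 253 ± 8.14 in PTU/LID-fed KO (SD, n = 3). Serpinb6a, a cytosolic inhibitor of cathepsin G, made up most of it at 158.8 CPM on average, and 3 of its 6 regions also lie inside Nqo2 or Ripk1. Its log2 fold changes ran from -0.08 to 0.22 with edgeR adjusted p from 0.279 to 0.83. Serpinb9, which protects cells from granzyme B, had 1 region over its promoter (chr13:33003663-33005249) and gene sums of 43.73 ± 4.80, 40.43 ± 9.07, 42.96 ± 1.40 and 41.01 ± 7.56 CPM in the same order of groups. Serpinb1a, an inhibitor of neutrophil serine proteases, was at 30.67 ± 10.03, 32.59 ± 0.96, 36.57 ± 1.63 and 31.74 ± 0.75 CPM.

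Serpinb6b was the 1 clade b gene that passed. It had 1 region (chr13:32969264-32969663), which on the scale of gene sums gave 3.64, 4.59 and 5.74 CPM in chow-fed KO and 8.79, 10.45 and 8.75 CPM in PTU/LID-fed KO. In WT it gave 10.38, 8.12 and 4.71 CPM on chow and 8.70, 5.17 and 4.15 CPM on PTU/LID. The KO groups did not overlap, and the WT groups did. The rise in KO was 0.99 ± 0.31 (edgeR adjusted p = 0.0489). It held without KO-211 and was lost without any of the other 5 libraries (up to 0.206). In WT the change was -0.35 ± 0.34 (0.58), and the interaction of 1.34 ± 0.46 had an adjusted p of 0.28.

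Serpinb8, which can inhibit furin, had 4 regions. It measured 58.32, 54.98 and 60.55 CPM in chow-fed WT, 72.28, 61.09 and 78.11 in PTU/LID-fed WT, 59.85, 53.88 and 55 in chow-fed KO, and 50.4, 55.53 and 58.81 in PTU/LID-fed KO. The WT PTU/LID libraries were above all others, and neither the diet in WT (0.28 ± 0.13, edgeR adjusted p = 0.184) nor the genotype on PTU/LID (-0.35 ± 0.13, 0.101) passed.

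**Figure D5:**
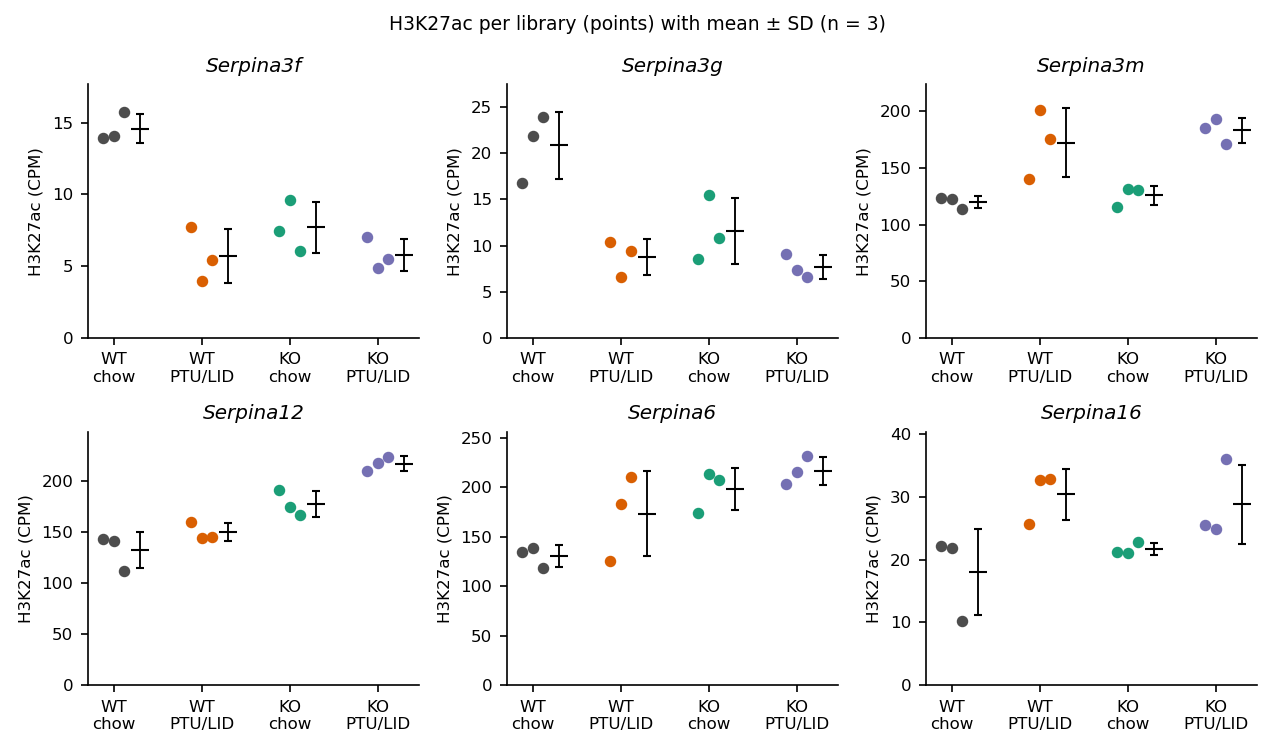
H3K27ac (CPM summed over each gene's regions) per library as points, with mean ± SD (n = 3) beside them, for 6 genes in the 4 groups. WT on chow stands above the other groups at Serpina3f and Serpina3g, PTU/LID stands above chow at Serpina3m, and KO stands above WT of the same diet at Serpina12.

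No gene of clades c, d, f, g or h passed at gene level. Serpinc1 measured 291.2, 294.6 and 362 CPM in chow-fed WT, 316.2, 421.3 and 356.5 in PTU/LID-fed WT, 381.5, 384 and 408.1 in chow-fed KO, and 410.5, 445.8 and 450.8 in PTU/LID-fed KO. KO on chow was above WT on chow in all libraries, by 0.31 ± 0.11 on the log2 scale, with an edgeR adjusted p of 0.119. With a term in the fit for the higher or lower mitochondrial set, the difference was 0.40 (0.00321) on chow and 0.26 (0.0423) on PTU/LID. The lower set holds no KO chow library, so on chow this term and the genotype overlap in part. Its highest region covers the promoter (chr1:160977926-160981550) at 178.4 CPM on average.

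Serping1, the gene of the C1 inhibitor that controls complement and the contact system, stayed at 203.6 ± 14.02, 224 ± 20.26, 203.3 ± 3.81 and 210 ± 22.86 CPM in chow-fed WT, WT on PTU/LID, KO on chow and KO on PTU/LID (SD, n = 3). Serpinf1, which encodes the antiangiogenic factor PEDF, was at 85.03 ± 7.87, 108.7 ± 11.13, 100.8 ± 7.63 and 107.9 ± 20.68 CPM. Its change of 0.36 ± 0.14 on the diet in WT had an edgeR adjusted p of 0.105, and 0.049 without WT-135. Serpinf2, the gene of the plasmin inhibitor alpha-2-antiplasmin, was at 59.62 ± 2.75, 60.98 ± 6.15, 64.14 ± 16.27 and 61.18 ± 9.13 CPM.

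Serpind1, the gene of heparin cofactor II, a thrombin inhibitor, lies within Pi4ka, so its 3 regions may belong to either gene. They summed to 64.17 ± 1.98, 67.28 ± 7.28, 63.32 ± 8.10 and 55.45 ± 4.56 CPM in the same order. Serpinh1, a collagen chaperone of the endoplasmic reticulum, had 1 region of 200 bp inside the gene (chr7:99352881-99353080) and gene sums of 3.88 ± 0.93, 3.04 ± 1.21, 3.89 ± 0.74 and 3.64 ± 2.52 CPM, the lowest CPM of the 30 genes.

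The proteases, cofactors and clearance receptors that serpins act with were read from a list of 55 genes, of which 47 had a region. For the diet in WT, 3 rose and 2 fell. In KO 1 rose and 2 fell, and between genotypes 1 was higher in KO on chow and 2 on PTU/LID, beside 7.8%, 7.63%, 4.1% and 6.66% of all genes called in these 4 comparisons. F7, Habp2 and Tmprss6 rose by 0.59 ± 0.18, 0.41 ± 0.12 and 0.37 ± 0.10 on the log2 scale (edgeR adjusted p = 0.0413, 0.03 and 0.0253). F12 and Sort1, a sorting receptor, changed by -0.55 ± 0.13 and -0.79 ± 0.17 (0.0105 and 0.00702). In KO the same 2 genes fell, at -0.60 ± 0.12 (0.00238) and -0.74 ± 0.17 (0.00564), and Vldlr, a receptor of the family that clears serpin complexes, rose by 0.69 ± 0.19 (0.0274).

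Between genotypes, F10 was higher in chow-fed KO by 0.50 ± 0.13 (edgeR adjusted p = 0.0368). On PTU/LID the heavy chain genes of the inter-alpha-trypsin inhibitor Itih1 and Itih2 were higher in KO by 0.44 ± 0.11 (0.0136) and 0.38 ± 0.11 (0.0379). The median of the list was 0.09 for the diet in WT, -0.06 in KO, 0.16 for KO against WT on chow and 0.03 for KO against WT on PTU/LID, beside -0.02, -0.01, -0.01 and -0.02 over all genes. Plat, Plaur, Procr, Ctsg, Prtn3, Gzmb, St14 and A2m had no region.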

How the data were processed

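The values are counts of H3K27ac reads over shared regions, deposited by the authors as whole numbers in a single table for 12 libraries. The tools listed in the submitters' processing notes were bedtools 2.26.0, MACS2 2.1.1, Picard 2.8.1, Bowtie2 2.2.1 and bcl2fastq 2.17.1.14, with build mm10. Not given in the sources used here: how shared regions were made and how duplicate or multiply matching reads were handled. The 4 libraries labelled WCE were not analysed here.

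A RefSeq table of GRCm38.p6 placed regions in genes. It held no exons, so exon, intron and UTR were not separated. Positions are 1-based. Tests used edgeR 4.0.16 in R 4.3.3: TMM, filterByExpr (minimum count 10), 1 mean per group over 12 libraries, robust quasi-likelihood test, Benjamini-Hochberg over all 52606 regions or 11459 genes, on counts per region or summed per gene. CPM uses TMM library sizes over regions or over genes, so the 2 scales differ slightly, and levels are relative to that sum. SE was the size of the log2 fold change divided by the root of F. The fit was tested on simulated data. DESeq2 1.42.0 was one of the alternatives.

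Every member gene could be named. Regions were named where they passed or were the highest of their gene, and other genes where they passed. Members, lists and mitochondrial sets were chosen with earlier results of these data known. Results for 1 item of the rule are not reported here, and counts over all members include it.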

Additional observations from a re-analysis of the deposited data

How the results depend on the processing

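Counts below are of Serpin regions or genes that passed. The share of all regions or genes called in each alternative setting is not given here. A shift in these counts is therefore not shown to be particular to Serpin members. Leaving out 1 library of the compared groups gave 0 to 18 regions for the diet in WT (6 with all libraries), 2 to 5 in KO (5), 0 to 3 for KO on chow (4) and 0 to 6 for KO on PTU/LID (4), and 2 to 12, 2 to 3, 0 to 3 and 1 to 1 genes (5, 4, 4 and 1). Library WT-135 set the upper end of the first of each. Libraries of higher mitochondrial share alone gave 0, 2, 10 and 0 regions, and 0 and 2 genes for the diet in WT and KO. Libraries of lower share alone gave 12 regions for the diet in WT and 10 for KO on PTU/LID, with 2 genes for the latter, and hold no KO chow library. A term for the higher or lower set gave 3 regions for the diet in KO and 1 for the interaction. It gave 16 regions and 8 genes for KO on chow, and 9 regions and 2 genes for KO on PTU/LID. Only the libraries compared gave 8, 10 and 2 regions for the diet in KO, KO on chow and KO on PTU/LID. DESeq2 gave 2 regions for the diet in KO, and cyclic loess 1 gene for KO on chow. Regions inside genes gave 3, 3 and 2 regions for the diet in WT, in KO and KO on chow, and 3 and 1 genes for the diet in WT and KO, where regions within 10 kb gave 2. The cause of these shifts was not tested. The 1 reversed value was the change of -0.06 at the region beside Serpina16 for the diet in WT, within the higher share. No paired analysis was possible because the 4 groups share no library number. Member counts went down to 3 reads per region and library, which limits what small regions can show.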
